A study of Rattus norvegicus with 3 samples.

Results

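The rat major histocompatibility complex is called RT1, and its genes were measured here in the neonatal rat retina after an injection of streptozotocin (STZ), a nitrosourea drug that damages DNA by alkylation. The genes were taken as every row of the deposited expression table whose symbol begins with RT1-, which gave 34 rows of 18425. By symbol, 25 rows were class I-like and 9 were class II. All 34 matched RefSeq's rat table for the assembly GRCr8 by gene identifier with the same symbol, and all lie on chromosome 20 there. That table holds 67 RT1 symbols, and the other 33 were not analysed here.

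Retinas came from wild-type Sprague-Dawley rats. Each group received 1 µl into the vitreous at postnatal day 1 (P1) and the retinas were taken at P4. The buffer group received citrate buffer of pH 4.5, the saline group received saline, and the STZ group received 10 µg of STZ prepared in the same citrate buffer, so STZ against buffer differs in the drug while STZ against saline differs in the drug and its vehicle. There was 1 library per group. In describing its eye injections, the paper says that right eyes received STZ and the left eyes of the same rats received citrate buffer. Whether the sequenced STZ and buffer retinas were such pairs, and which animals gave the saline retinas, is not stated. The labels do not say how many retinas or animals entered a library, the spread between animals is unknown, no difference below has a replicate check, and no test was made.

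Class I molecules are heavy chains that pair with beta-2-microglobulin and show peptides from inside the cell to CD8 T cells, while natural killer cells also read them. Peptides reach them through the immunoproteasome and the Tap1/Tap2 transporter. MHC class II molecules are pairs of an alpha and a beta chain, found mainly on professional antigen-presenting cells, and they show peptides from the endosome to CD4 T cells. The DM pair loads peptide onto class II, the DO pair modulates DM, and the invariant chain Cd74 guides class II to the endosome. In the rat, RT1-A is the classical class I locus, RT1-B and RT1-D are the classical class II loci, and RT1-CE, RT1-N, RT1-S, RT1-T24, RT1-M and RT1-O are class I-like. In the healthy retina, the resident cells able to express class II are chiefly microglia and other macrophages.

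Where class I heavy chain genes are close copies of each other, reads may be split between rows, so their counts have to be read with care. The RT1-A and RT1-CE promoters show a similarity, although promoter letters do not measure how alike the transcribed parts are. The 4 windows below, from RefSeq promoters of GRCr8, belong to the RT1-A rows and to 2 RT1-CE rows called higher in the STZ library than in buffer. Capitals mark 3 motifs: GGGGATTCC, the kB site of the class I enhancer A, then GAANTGAAA on the opposite strand (read here as TTTCACTTC), the class I interferon-stimulated response element, and ATTGG, the Y box. RT1-A1 is at chr20:4907064-4907193 on the plus strand, RT1-A2 at chr20:4872677-4872806 on the plus strand, RT1-CE5 at chr20:3484147-3484276 on the minus strand and RT1-CE10 at chr20:3385064-3385193 on the minus strand.
RT1-A1: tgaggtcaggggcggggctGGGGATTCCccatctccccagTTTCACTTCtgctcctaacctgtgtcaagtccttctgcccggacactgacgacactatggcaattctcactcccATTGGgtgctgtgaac
RT1-A2: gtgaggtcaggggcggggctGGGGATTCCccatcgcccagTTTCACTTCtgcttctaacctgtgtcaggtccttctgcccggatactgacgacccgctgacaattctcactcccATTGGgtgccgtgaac
RT1-CE5: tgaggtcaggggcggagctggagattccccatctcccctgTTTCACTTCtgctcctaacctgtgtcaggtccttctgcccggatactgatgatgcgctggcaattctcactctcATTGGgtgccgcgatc
RT1-CE10: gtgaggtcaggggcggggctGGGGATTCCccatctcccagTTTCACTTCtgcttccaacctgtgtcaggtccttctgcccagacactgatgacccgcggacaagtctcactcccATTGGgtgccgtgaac
In gapped alignments of these windows, RT1-A2 had the same base as RT1-CE10 in 94.6% of columns, as RT1-A1 in 91.6% and as RT1-CE5 in 89.3%. The RT1-CE3 window was less alike, from 75.7% with RT1-CE13 to 80.7% with RT1-A1. Only RT1-A and RT1-CE windows were aligned.

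A promoter of 300 bases, from 250 before to 50 after the annotated start, was given for 30 of the 34 rows, 22 class I-like and 8 class II. Motifs were searched on both strands. The kB site GGGGATTCC was in 6 of 22 class I-like promoters (RT1-A1, RT1-A2, RT1-CE3, RT1-CE4, RT1-CE10 and RT1-CE13), in 0 of 8 class II promoters, and in 0.281% of all 33469 rat promoters. GAANTGAAA was in the same 6 and in RT1-CE5, against 1.93% of all promoters. Both patterns were chosen after the promoters had been seen. Another response element pattern, GAAA, any 2 bases, GAAA, was in RT1-N3, RT1-S2 and RT1-S3, against 3.92% of all promoters. The TATA motif TATAAA was in 5 class I-like promoters and 1 class II promoter, against 14.2% of all. These matches describe letters in a window and are not evidence of binding.

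The class II promoters have another layout. The Y box ATTGG was in 8 of 8 class II promoters and in 15 of 22 class I-like promoters, against 37.5% of all promoters. TGACGT, the core of an X2 box, was in the class II promoter RT1-Ba, in the class I-like promoter RT1-M6-1, and in 7.94% of all promoters. The 3 windows below show the class II rows RT1-Da, at chr20:4515306-4515380 on the plus strand, RT1-Ba, at chr20:4576954-4577028 on the plus strand, and RT1-DMa, at chr20:4712385-4712459 on the minus strand, with TGACGT (read on both strands) and ATTGG in capitals. They are shown because these 3 rows were called higher in STZ than in buffer.
RT1-Da: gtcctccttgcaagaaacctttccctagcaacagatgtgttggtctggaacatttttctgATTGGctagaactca
RT1-Ba: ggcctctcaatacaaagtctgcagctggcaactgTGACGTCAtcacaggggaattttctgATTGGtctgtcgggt
RT1-DMa: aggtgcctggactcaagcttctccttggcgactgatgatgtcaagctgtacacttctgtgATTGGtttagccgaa

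**Figure D1:**
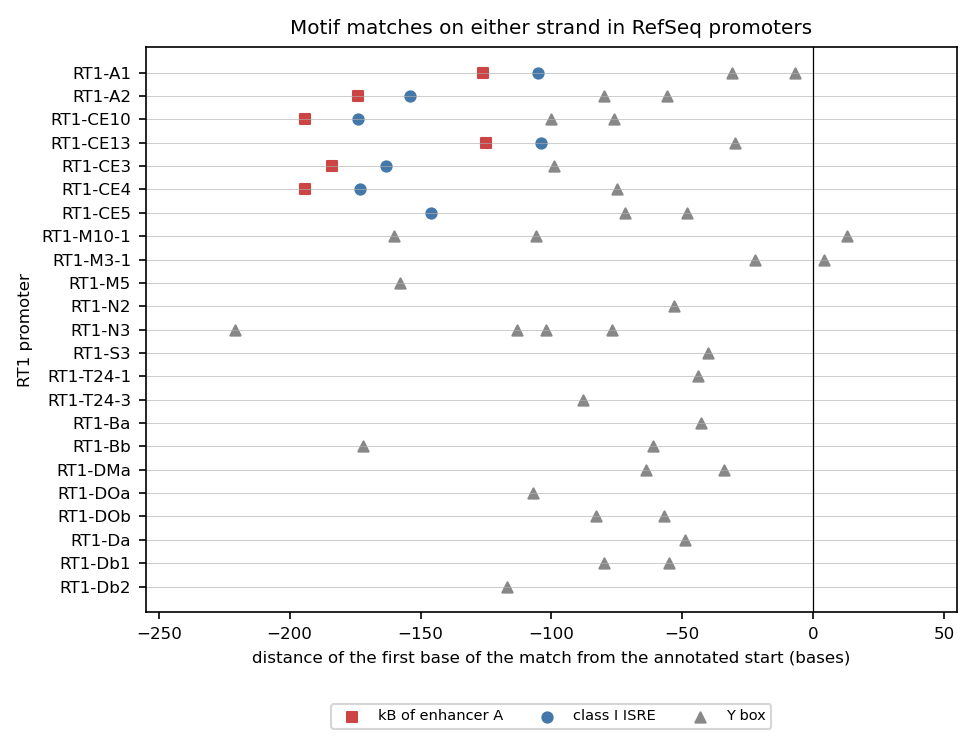
Each row is an RT1 promoter with at least 1 match, and the horizontal axis gives the distance in bases of the first base of a match from the annotated start. Red squares are GGGGATTCC, blue circles GAANTGAAA and grey triangles ATTGG. The red and blue marks are in RT1-A and RT1-CE promoters, with red upstream of blue in all 6 that hold both, and the 8 class II promoters carry grey marks only.

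Expression was low for the family as a whole. The libraries held 21992702 (buffer), 21977843 (saline) and 22031249 (STZ) estimated reads, and the RT1 rows together took 0.00704%, 0.00796% and 0.0119% of them. Of the 34 rows, 21 had a mean of at least 10 reads over the 3 libraries, 18 of them class I-like and 3 class II, and 5 were listed at 0 in at least 1 library. The tissue matched its label: the photoreceptor genes Crx and Nrl and the progenitor gene Pax6 had between 5504 and 13849 reads in every library.

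The deposited counts are not all whole, and 17 of the 34 RT1 rows had a fractional count in at least 1 library, against 2858 of 18425 rows in the table. The fractional rows were 15 class I-like rows and the class II rows RT1-DMa and RT1-DMb. A fractional count is an estimate rather than a tally of reads, and between near-identical copies such estimates are uncertain row by row. Reads at several genomic places were discarded according to the methods, and how the fractions were made is not given in the sources used here. Sums over groups of rows were therefore read beside single rows. Whether RT1 sequences differed between the animals of the libraries, or from the build used for mapping, was not tested.

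Differences are given in 2 ways. The fold is the study's own, (FPKM + 1) divided by (FPKM + 1), where FPKM is fragments per kilobase of transcript scaled to library size, and a row was called higher above 1.54 and lower below 0.65. The added 1 pulls the fold of low rows toward 1. The count ratio is the ratio of a row's shares of the library totals, and its 95% interval is exact (Clopper-Pearson). Because each group has 1 library, these intervals cover counting error only, and for fractional rows they leave out the error of the estimate. Molecules carried no identifiers, so copies of the same molecule were counted as separate reads and the intervals may be too narrow. The 3 comparisons share libraries with each other and are not independent.

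Against buffer, the STZ library had 9 RT1 rows called higher and 0 lower, which is 26.5% of the 34, where 2.25% of all rows were called higher and 1.04% lower. The 9 were the class I-like rows RT1-A2, RT1-CE5, RT1-CE7, RT1-CE10 and RT1-S3 and the class II rows RT1-Ba, RT1-Da, RT1-DMa and RT1-DMb. Against saline, 7 rows were called higher and 0 lower, 20.6% of the 34, where 2.04% of all rows were called higher and 1.75% lower. Those 7 were the same rows without RT1-CE5 and RT1-Da, so 7 were higher than both controls, where 1.39% of all rows were. Between the controls, 0 RT1 rows were higher in saline and 1 was lower, RT1-DMa, where 1% of all rows were higher and 0.429% lower.

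The background was also taken among better-measured rows. With a mean of at least 10 reads, 8 of 21 RT1 rows were called higher in STZ than in buffer, where 2.58% of such rows in the table were. Among fractional rows with that mean, 6 of 15 RT1 rows were called, where 4.13% of fractional rows in the table were. Among whole-count rows, 2 of 6 RT1 rows were called, RT1-S3 and RT1-Da, where 2.3% of such rows in the table were. The median log2 fold of the 21 RT1 rows was 0.36 against buffer, 0.25 against saline and 0.13 for saline against buffer, beside 0.03, 0.01 and 0.02 over all rows with that mean. For the 6 whole-count RT1 rows the medians of STZ were 0.15 against buffer and -0.01 against saline.

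**Figure D2:**
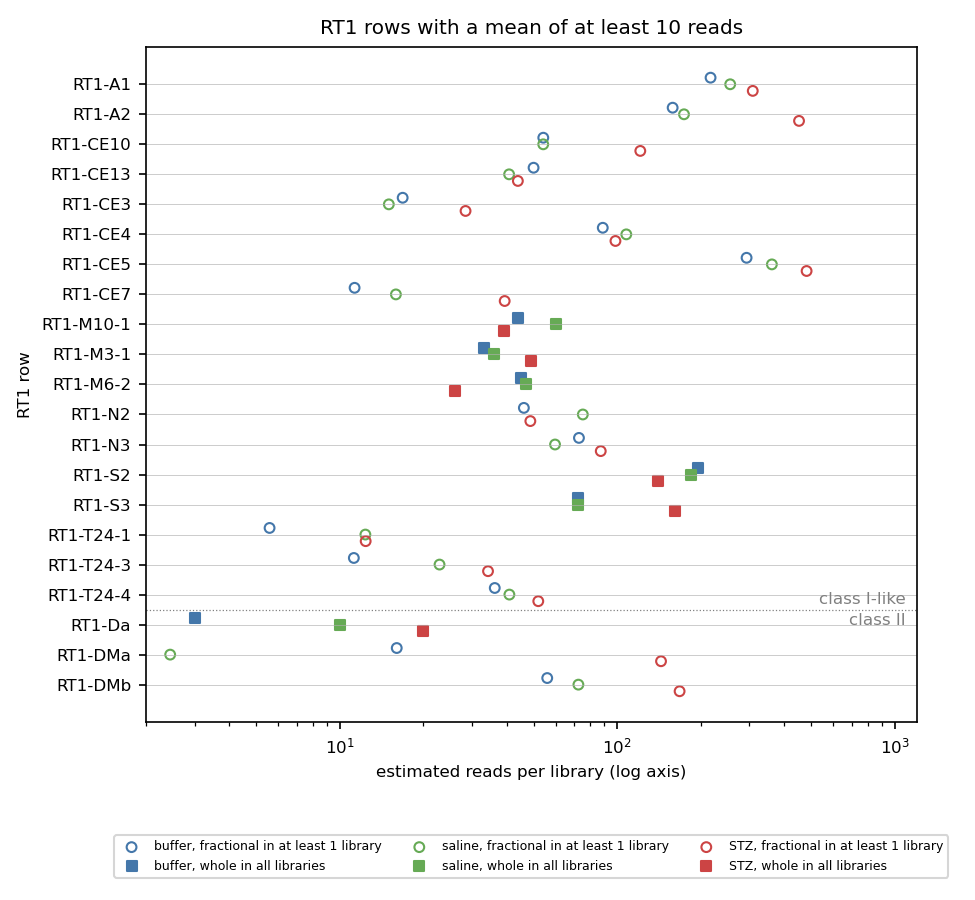
The horizontal axis gives estimated reads per library on a log scale for the 21 RT1 rows with a mean of at least 10 reads. Blue is buffer, green saline and red STZ, 1 library each; open circles are rows with a fractional count and filled squares are rows whole in all libraries. The red mark is the highest of the 3 for most rows, among them RT1-A2, RT1-CE10, RT1-S3, RT1-DMa and RT1-DMb. It is the lowest for RT1-S2, RT1-M6-2 and RT1-M10-1.

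RT1-A2 (gene identifier 24974), a classical class I heavy chain, had 158.58 reads in buffer, 174.24 in saline and 452.68 in STZ. Its FPKM was 5.44, 5.98 and 15.5. The STZ library stood apart from both controls, which were close to each other. STZ was higher by a fold of 2.56 than buffer and 2.36 than saline, and the count ratios were 2.84 (2.37 to 3.43) and 2.6 (2.18 to 3.11). Saline against buffer gave a count ratio of 1.1 (0.878 to 1.37).

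RT1-A1 (gene identifier 24973), the other classical class I row, had 217.23 reads in buffer, 255.67 in saline and 308.32 in STZ. It was not called in any comparison, since its folds were 1.37 (buffer) and 1.18 (saline), although its count ratio against buffer was 1.42 (1.19 to 1.69). RT1-A2 took 42.3% (37.2 to 47.5) of the reads of the pair in buffer, 40.5% (35.8 to 45.3) in saline and 59.5% (55.9 to 63) in STZ. Both rows are fractional, so how far the split between them is an estimate was not tested. The sum of the pair does not depend on how reads were shared within it, and it was 375.81, 429.91 and 761 reads. It was still fractional in buffer and saline, so it may also depend on rows outside the pair. The RT1-A sum was higher in STZ by a fold of 1.95 than buffer and 1.72 than saline, with count ratios of 2.02 (1.78 to 2.29) and 1.77 (1.57 to 1.99).

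The RT1-CE rows are class I-like genes, and 7 were in the table, all fractional. RT1-CE5 (gene identifier 309607) had the most reads of any RT1 row, with 292.92 in buffer, 361.36 in saline and 482.03 in STZ. Saline lay between the other libraries. Its fold of 1.58 passed the threshold against buffer, and its fold of 1.3 against saline did not. The count ratio was 1.64 (1.42 to 1.91) against buffer, 1.33 (1.16 to 1.53) against saline and 1.23 (1.05 to 1.44) for saline against buffer.

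RT1-CE10 (gene identifier 414792) had 54.2 reads in buffer, 54.17 in saline and 121.24 in STZ. Both controls were level and STZ was above both, with a fold of 1.58 and 1.59 and a count ratio of 2.24 (1.61 to 3.14) in each. RT1-CE7 (gene identifier 368153) had 11.32, 15.95 and 39.34 reads. Its fold was 1.92 against buffer and 1.67 against saline, and its count ratios were 3.54 (1.78 to 7.66) and 2.43 (1.33 to 4.66).

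The other 4 RT1-CE rows were not called. RT1-CE4 had 88.79, 107.94 and 98.65 reads, with saline the highest. RT1-CE13 had 50, 40.81 and 43.89, with buffer the highest, and RT1-CE3 had 16.87, 15.04 and 28.43. RT1-CE2 had at most 6.81 reads in a library. In the GRCr8 annotation the span of RT1-CE7 lies within those of RT1-CE5 and RT1-CE4, which overlap each other. Whether their exons overlap in rn6, the build the reads were mapped to, was not tested.

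The sum of the RT1-CE rows was 517.14 reads in buffer, 597.58 in saline and 820.39 in STZ. Its count ratio was 1.58 (1.42 to 1.77) against buffer and 1.37 (1.23 to 1.52) against saline. On the FPKM scale the fold of this sum was only 1.3 and 1.24. The deposited FPKM of RT1-CE13 corresponds to a length of 196 bases, so this row held 3.42% of class I-like reads in buffer but 21.9% of class I-like FPKM.

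RT1-S3 (gene identifier 294228), which RefSeq lists with the mouse synonym H2-T23, had 72 reads in buffer, 72 in saline and 162 in STZ, whole in all 3. The controls were equal and STZ was above them, with a fold of 1.72 against each and count ratios of 2.25 (1.69 to 3.01) and 2.24 (1.69 to 3.01). It was the only whole-count class I-like row called. RT1-S2 had 196, 185 and 140 reads, so STZ was the lowest, with count ratios of 0.713 (0.57 to 0.89) and 0.755 (0.602 to 0.945) and folds of 0.821 and 0.85 that were not called. RT1-S2 took 73.1% (67.4 to 78.3) of the reads of the pair in buffer, 72% (66.1 to 77.4) in saline and 46.4% (40.6 to 52.2) in STZ. RT1-O1, which had at most 2 reads, lies within the span of RT1-S2 in GRCr8.

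RT1-N2 and RT1-N3 moved against each other between the controls. RT1-N2 had 46.13 reads in buffer, 75.25 in saline and 48.68 in STZ, and RT1-N3 had 72.87, 59.75 and 87.32. Their counts added to whole numbers in every library, 119, 135 and 136, within a tolerance of 0.01 reads. In STZ against saline the single rows had count ratios of 0.652 (0.445 to 0.947) for RT1-N2 and 1.45 (1.03 to 2.04) for RT1-N3, on opposite sides of 1. The sum had a count ratio of 1 (0.786 to 1.28) against saline and 1.14 (0.885 to 1.47) against buffer.

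The RT1-T24 rows were low. RT1-T24-4 had 36.23, 40.91 and 51.99 reads, RT1-T24-3 had 11.25, 22.91 and 34.26, and RT1-T24-1 had 5.59, 12.38 and 12.41. In each, buffer was the lowest library. No RT1-T24 row was called, the nearest being RT1-T24-3 with a fold of 1.46 against buffer. The sum of the RT1-T24 rows had a count ratio of 1.86 (1.32 to 2.65) against buffer and 1.3 (0.954 to 1.78) against saline. The spans of RT1-T24-3 and RT1-T24-4 overlap in GRCr8.

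The RT1-M rows form a separate class I-like branch, and none was called. RT1-M3-1, listed with the synonym H2-M3, a gene whose mouse product presents formylated peptides, had 33, 36 and 49 reads. Its count ratio against buffer was 1.48 (0.934 to 2.38). RT1-M6-2 had 45, 47 and 26 reads, with STZ the lowest and count ratios of 0.577 (0.342 to 0.955) and 0.552 (0.328 to 0.91). RT1-M10-1 had 44, 60 and 39, with a count ratio of 0.648 (0.422 to 0.987) against saline. RT1-M1-2, RT1-M1-4, RT1-M4, RT1-M5 and RT1-M6-1 had at most 3 reads in any library. The RT1-M sum was 128.06, 147.04 and 119.14 reads, with a count ratio of 0.928 (0.717 to 1.2) against buffer and 0.808 (0.629 to 1.04) against saline, so a difference was not detectable at this depth.

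Over all 25 class I-like rows the sum was 1462.08 reads in buffer, 1642.73 in saline and 2239.19 in STZ. Its fold was 1.47 against buffer and 1.35 against saline, both under the threshold, and its count ratios were 1.53 (1.43 to 1.63), 1.36 (1.28 to 1.45) and, for saline against buffer, 1.12 (1.05 to 1.21). Of the 777.11 more reads in STZ than in buffer, RT1-A2 gave 37.8%, RT1-CE5 24.3%, RT1-A1 11.7%, RT1-S3 11.6% and RT1-CE10 8.63%. Without RT1-CE13, whose short length weighs on the FPKM sum, the fold against buffer was 1.63 and passed the threshold, and without RT1-A2 it was 1.31. The higher class I-like sum lay in fractional rows, which had 1067.08, 1239.73 and 1818.19 reads. The whole-count class I-like rows had 395, 403 and 421 reads, a count ratio of 1.06 (0.925 to 1.22) against buffer. In these, RT1-S3 was higher while RT1-S2 and RT1-M6-2 were lower.

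**Figure D3:**
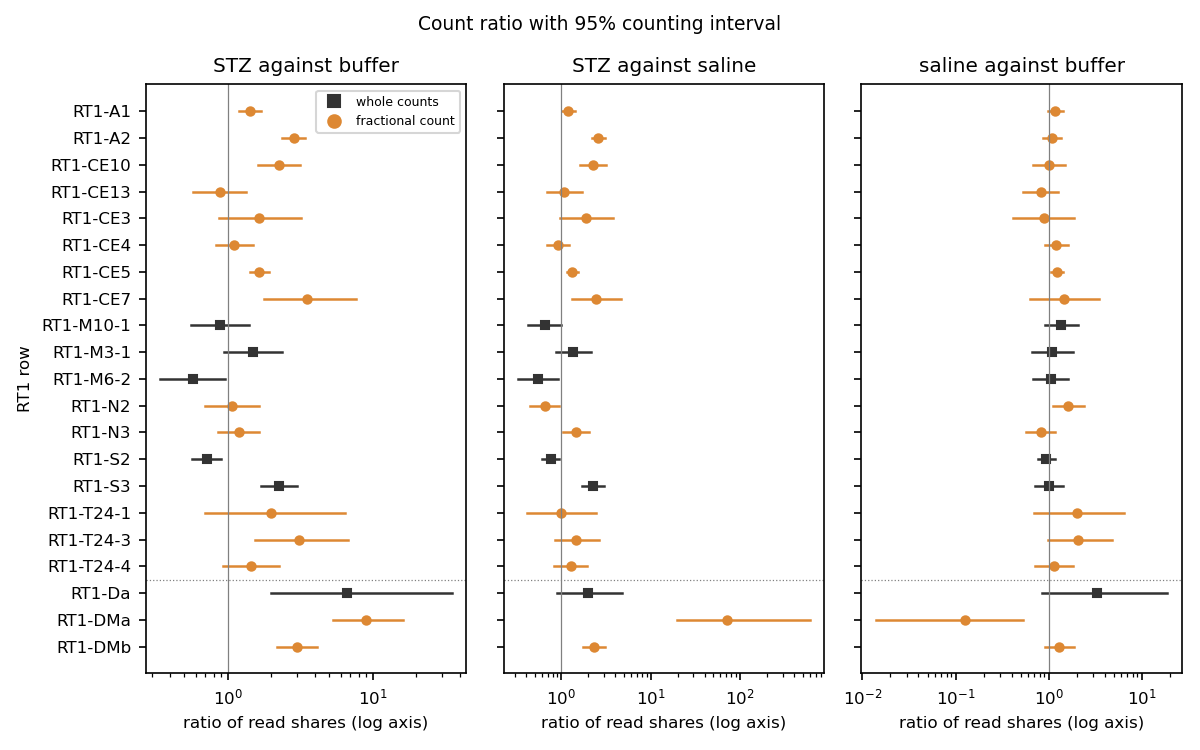
Count ratios of the 21 RT1 rows with a mean of at least 10 reads in 3 comparisons, on log axes that differ between panels; a ratio of 1 is the vertical line and bars are 95% counting intervals. Black squares are whole-count rows and orange circles fractional rows. RT1-A1, RT1-A2, RT1-CE5, RT1-CE7, RT1-CE10, RT1-S3, RT1-DMa and RT1-DMb lie right of the line with their whole interval in both STZ panels. RT1-DMa lies far left of it in saline against buffer.

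RT1-DMa (gene identifier 294274) is the alpha chain of the class II peptide loader DM. It had 16.06 reads in buffer, 2.45 in saline and 144 in STZ. Taken alone, its fold in STZ was 4.66 relative to buffer and 7.63 relative to saline. Saline relative to buffer was 0.611, and it was the 1 RT1 row called between the controls. The count ratio against saline was 71.8 (19.5 to 599) and against buffer 8.98 (5.35 to 16.1).

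The counts of this row may be tied to those of another, judged by whole-number sums alone. RT1-DMa was itself fractional in buffer and saline only, and how often unrelated rows match in this way was not tested. The values of RT1-DMa and of exactly 1 other row of the table, LOC108348072, added to whole numbers in all 3 libraries within 0.01 reads. LOC108348072 had 70.94 reads in buffer, 71.55 in saline and 0 in STZ, opposite in order to RT1-DMa. The sum was 87, 74 and 144 reads. On that sum STZ was higher than buffer by a fold of 1.55, just past the threshold, and higher than saline by 1.77. The count ratios were 1.65 (1.26 to 2.18) and 1.94 (1.46 to 2.61), and saline against buffer was 0.851 (0.616 to 1.17) and no longer called. The STZ direction held on the sum, at a much smaller size, and the difference between the controls did not pass. What LOC108348072 is was not settled here, since its identifier has no entry in the RefSeq table used.

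**Figure D4:**
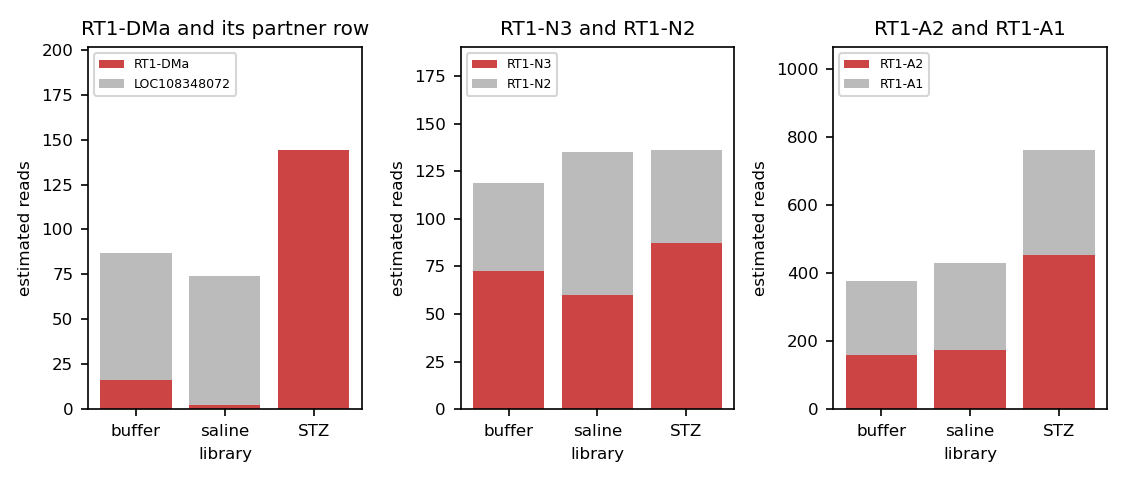
Stacked bars give the estimated reads of 3 pairs of rows in the buffer, saline and STZ libraries, 1 library per bar, each panel on its own axis from 0. For RT1-DMa (red) and LOC108348072 (grey) the red part is small in both controls and is the whole bar in STZ, while the totals are 87, 74 and 144. RT1-N3 (red) and RT1-N2 (grey) have totals of 119, 135 and 136, and RT1-A2 (red) is the larger part above RT1-A1 (grey) in STZ alone.

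RT1-DMb (gene identifier 294273), the beta chain of DM, had 56 reads in buffer, 72.53 in saline and 168 in STZ. STZ was above both controls, with folds of 2.41 (buffer) and 1.99 (saline) and count ratios of 2.99 (2.2 to 4.13) and 2.3 (1.73 to 3.06). Its count was fractional in saline only. Either of 2 other rows made it whole there, LOC103689971 with 27.47 reads or LOC108348139 with 2.47, and with either one the fold against saline stayed above the threshold, at 1.76 or 1.94. The DO chains were near 0: RT1-DOa had 0, 0 and 2 reads and RT1-DOb had 2, 1 and 2.

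The classical class II chains had few reads, all of them whole. RT1-Ba (gene identifier 309621), an alpha chain of the RT1-B pair, had 2 reads in buffer, 3 in saline and 20 in STZ. Its fold was 1.84 and 1.76, and its count ratios were 9.98 (2.42 to 88.1) and 6.65 (1.97 to 34.9). Its partner chain RT1-Bb had 0, 4 and 8 reads, which is at least 2.66-fold higher in STZ than in buffer when buffer is set to a floor of 3 reads with no counting error. With counting error the lower limit of the ratio was 1.7, and its fold of 1.28 was not called.

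RT1-Da (gene identifier 294269), the alpha chain of the RT1-D pair, had 3, 10 and 20 reads. It was called against buffer, with a fold of 1.7 and a count ratio of 6.66 (1.97 to 35), and not against saline, with a fold of 1.32 and a count ratio of 2 (0.891 to 4.77). RT1-Db1, its beta chain, had 6, 12 and 11 reads, so STZ and saline were level. RT1-Db2 had 1 read in each library. The B and D rows together had 12, 30 and 60 reads, with a count ratio of 4.99 (2.66 to 10.2) against buffer, 2 (1.27 to 3.2) against saline and 2.5 (1.24 to 5.37) for saline against buffer. In this sum buffer was the low library, and saline lay between it and STZ.

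Over all 9 class II rows the sum was 86.06 reads in buffer, 105.98 in saline and 376 in STZ, and the summed FPKM was 3.89, 4.66 and 17.72. The fold was 3.83 against buffer and 3.31 against saline. With LOC108348072 added, the sum was 157, 177.53 and 376 reads, and its fold was 2.18 and 1.99, with count ratios of 2.39 (1.98 to 2.9) and 2.11 (1.76 to 2.53). With RT1-DMa and RT1-DMb left out, the whole-count class II rows had 14, 31 and 64 reads, with folds of 2.39 and 1.62.

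The partner genes of MHC presentation were read from a list of 24, of which 23 were in the table. Against buffer 9 were called higher and 0 lower, and against saline 9 higher and 0 lower, where 2.25% and 2.04% of all rows were called higher. The median log2 folds were 0.43 and 0.38, beside 0.03 and 0.01 over all rows with a mean of at least 10 reads. Saline against buffer gave 2 higher, Cd74 and Psmb9. The genes higher than both controls included B2m, Tap1, Tap2, Psmb8, Psmb9, Psme2 and Ctss. B2m, the light chain of every class I molecule, had 435, 563 and 975 reads, with a fold of 2.14 and 1.68. Tap1 and Tap2, the subunits of the peptide transporter, had 30, 39 and 195 reads and 58.46, 85.56 and 581.65 reads. Saline against buffer gave count ratios of 1.3 (1.14 to 1.47) for B2m, 1.3 (0.788 to 2.17) for Tap1 and 1.48 (1.05 to 2.11) for Tap2. Tap2 and LOC103689996 likewise added to whole numbers, and their sum of 73, 100 and 618 reads gave folds of 5.54 and 4.51. The immunoproteasome subunits Psmb8 and Psmb9 had 28, 24 and 77 reads and 14, 31 and 102 reads. Psme2, a proteasome activator subunit, had folds of 1.64 and 1.54, with the second just over the threshold. Ctss, the protease that trims the invariant chain, had 127, 154 and 307 reads.

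Among transcriptional regulators of MHC genes, Rfx5 and Rfxank, subunits of the factor that binds the X box, were not called, with STZ folds of 0.967 and 0.974 against buffer. Rfx5 had 2707, 2740 and 2645 reads. Nlrc5, the class I transactivator, had 10, 9 and 56 reads. Its count ratio was 5.59 (2.83 to 12.3) for buffer and 6.21 (3.05 to 14.3) for saline as the control, but its folds were 1.21 and 1.22, since its FPKM was at most 0.27. Ciita, the class II transactivator, had 1, 2 and 3 reads, too few to show a difference. Cd74 had 20 reads in buffer, 43 in saline and 44 in STZ. It was called higher in STZ against buffer, with a fold of 1.55, and in saline against buffer, with 1.57, while STZ against saline gave a fold of 0.99 and a count ratio of 1.02 (0.655 to 1.59).

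Markers of microglia were higher in STZ as well. The 7 microglia markers (Aif1, Cx3cr1, P2ry12, Tmem119, Csf1r, Itgam and Ptprc) summed to 861 reads in buffer, 966 in saline and 1909 in STZ, a count ratio of 2.21 (2.04 to 2.4) and 1.97 (1.82 to 2.13), and 4 of the 7 were called higher against each control, where 2.25% and 2.04% of all rows were. The class I-like sum had a smaller count ratio than the microglia sum in both comparisons. The class II sum as deposited had larger count ratios, 4.36 (3.44 to 5.58) and 3.54 (2.85 to 4.43), with intervals above those of the microglia sum, while with LOC108348072 added its intervals overlapped them. The paper counted microglia by IBA1 staining of sections and reports an increase in STZ-treated retinas over a span that begins at P4. In these libraries of whole retina, more cells of a type and more RNA per cell cannot be told apart. The part of microglia in the RT1 differences was not tested.

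The sum of the 4 perivascular macrophage markers (Mrc1, Cd163, Lyve1 and Pf4) followed another order, with 10 reads in buffer, 85 in saline and 63 in STZ. All 4 were lowest in buffer, but they differed in STZ beside saline. Mrc1 had 4, 43 and 41 reads, Cd163 had 0, 14 and 1, Lyve1 had 6, 23 and 14, and Pf4 had 0, 5 and 7. Cd74 was also lowest in buffer. Of the 34 RT1 rows, 18 had a fold above 1 in saline against buffer and 11 a fold below 1. Of these rows 0 were called higher, where 1% of all rows were. The part of perivascular macrophages in the RT1 differences was not tested. Of the dendritic list, 4 of 6 genes were in the table, with 701, 699 and 724 reads, nearly all from Zbtb46, and Ccr7 had 0, 0 and 1. Flt3 had 20, 32 and 24 reads. Itgax had 10, 15 and 29, with count ratios in STZ of 2.89 (1.37 to 6.66) against buffer and 1.93 (1 to 3.87) against saline. Its folds of 1.16 and 1.12 were not called. Of the B cell list, 3 of 5 were in the table, with 5, 7 and 5 reads, and Pax5, the B lineage factor, had 2, 1 and 0. Of the T and NK cell list, 3 of 6 were in the table, with 128, 169 and 207 reads, of which Cd4, a gene macrophages of the rat also express, made up 127, 165 and 197, while Cd8a had 1, 3 and 10 and Nkg7 had 0, 1 and 0. The 5 endothelial markers had 13579.99, 14951.39 and 10082.4 reads, the lowest in STZ, nearly all from Kdr. Of the others, Cdh5 and Cldn5 were called lower against both controls, with count ratios against buffer of 0.235 (0.15 to 0.357) and 0.196 (0.134 to 0.281), and Tek and Pecam1 had count ratios of 0.285 (0.173 to 0.453) and 0.524 (0.294 to 0.91).

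**Figure D5:**
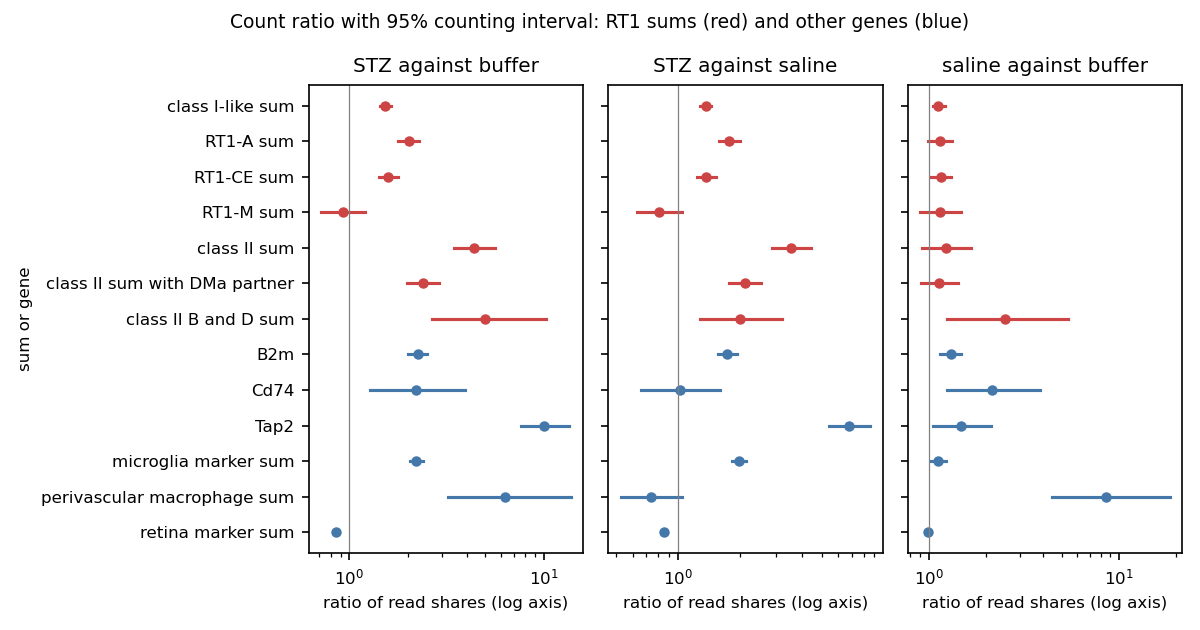
Count ratios with 95% counting intervals, on log axes that differ between panels, for sums of RT1 rows (red) and for other genes and marker sums (blue); the vertical line is a ratio of 1. In both STZ panels the class I-like, RT1-A, RT1-CE and class II sums, B2m, Tap2 and the microglia sum lie right of the line. In saline against buffer the perivascular macrophage sum is farthest from 1. Cd74, the class II B and D sum, B2m, Tap2 and the class I-like, RT1-CE and microglia sums also lie right of the line there.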

How the data were processed

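RNA from rat retinas was sequenced in 3 libraries, 1 per group. According to the study's methods, the authors trimmed reads, mapped them with TopHat2 allowing up to 2 mismatches, discarded reads at several genomic locations, and computed FPKM with a custom R script. The submitters' processing notes name FastQC, TopHat2 and the build rn6. The annotation and the source of the counts are not given in the sources used here. The authors deposited FPKM, TPM (not used) and estimated counts for each gene. Estimated counts were rounded for intervals, and no count model was fitted since no group has replicates. The members and lists were chosen with earlier results of these data known. Values are given for every RT1 row with a mean of at least 10 counts or a call, and for companion genes called against both controls or equal to B2m, Cd74, Ciita or Nlrc5. A few genes within these lists are not reported here. Other settings tried were thresholds of 2 and 0.5, a pseudocount of 0.1, only rows with a mean of at least 10 counts, TMM (edgeR 4.0.16) and DESeq2 1.42.0 scaling, CPM, whole-count rows, and interval calls. Comparing protein sequences was planned but not done here. The calculations were tested on simulated data. Python 3.11.15, scipy 1.17.1 and R 4.3.3 were used.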

Additional observations from a re-analysis of the deposited data

How the results depend on the processing

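With a pseudocount of 0.1, the number of RT1 rows called rose from 9 to 19 (17 higher, 2 lower) against buffer, from 7 to 16 (13 higher, 3 lower) against saline and from 1 to 10 (7 higher, 3 lower) for saline against buffer. Thresholds of 2 and 0.5 left 3, 2 and 0 rows, whole-count rows alone gave 3, 2 and 0, and counting intervals that excluded 1 gave 14 (12 above, 2 below), 14 (10 above, 4 below) and 3 (2 above, 1 below). The share of all rows called under these settings was not taken. These counts therefore have no background and do not set the RT1 rows apart from the rest. The class I-like fold of 1.47 against buffer was 1.19 over whole-count rows, 1.63 without RT1-CE13 and 1.31 without RT1-A2, and the fold of 1.35 against saline was 1.15 over whole-count rows and 1.21 without RT1-A2. The class II fold of 3.83 against buffer was 2.39 over whole-count rows and 2.18 with LOC108348072, and the fold of 3.31 against saline was 1.62 and 1.99. The DM and DO fold of 3.68 against buffer was 1.08 over whole-count rows, where both DM rows drop out, and 1.99 with LOC108348072, and the fold of 3.7 against saline was 1.09 and 1.98. Adding LOC108348072, summing RT1-N2 with RT1-N3 and leaving out RT1-CE13 or RT1-A2 were chosen after the data had been seen. The other 80 alternatives of the counts and sums stayed within 1.5 times the main count or within the counting interval of the sum. Among them, a pseudocount of 0.1 took the fold of the B and D sum from 2.41 to 4.37 against buffer, from 1.6 to 1.97 against saline and from 1.51 to 2.22, past the threshold, for saline against buffer. CPM took the DM and DO fold of saline against buffer from 0.995 to 1.02. No called value changed direction. Cross-library scaling moved the libraries by little, with TMM factors from 0.985 to 1.01. No paired analysis was possible because each group has 1 library, and for the same reason no replicate could be left out. Rows under 10 reads cannot show differences of moderate size at this depth.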

Other observations

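Whole-number sums were common in the table. Of 2858 rows with a fractional count, 1596 (55.8%) had exactly 1 other row whose counts made whole numbers with theirs in all 3 libraries, and of the 1962 rows fractional in all 3 libraries, 1342 (68.4%) did. In the RT1 family, RT1-DMa, RT1-N2, RT1-N3 and RT1-M6-1 had exactly 1 such row, which for RT1-M6-1 was Trpc4ap with 4211.93, 4064.95 and 4214.85 reads. RT1-DMb had 2, and the other 12 fractional class I-like rows had none.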
